A study of Arabidopsis thaliana with 4 samples.

Results

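In rosette leaves of Arabidopsis thaliana, 61 of 7322 tested genes gave their lowest signal in mock-sprayed plants with the empty vector and were higher in vector plants sprayed with abscisic acid (ABA), while the ABA difference in plants overexpressing ERD15 was smaller or of opposite sign. They were chosen on these same measurements. A gene was taken when its signal was lowest on the mock vector array and when its ABA difference (ABA minus mock, on a log2 scale) in the overexpressor, minus that in the vector line, was -2 or less. Tested genes are those with a probe set that is paired with 1 gene and has a mean signal of 29 or more over the arrays. That rule took 65 genes, of which AT5G55450, AT5G17760, AT3G28510 and AT1G57630 were set aside and are not counted here. SAG101, the fifth gene set aside, had a difference of -1.57 and fell outside the rule on its own. Because the rule read all 4 arrays, every difference between arrays given for the 61 genes is a description and carries no test.

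The study hybridised 4 Affymetrix ATH1 arrays, 1 for each of 4 groups, with total RNA from leaves of soil-grown Col-0 plants that were 3 weeks old. A pair of transgenic lines, selected as seedlings on 50 µg/ml kanamycin, was compared: one carried the pCP60 vector alone, and the other was ERD15 overexpressor line 52, a single line. The mock groups received water with 0.07% ethanol and the ABA groups 100 µM ABA at the same ethanol concentration, and leaves were taken 90 min after spraying. Leaves of 3 plants were pooled per sample in 3 of the groups, and the labels of the mock vector group do not state a number. The promoter that drives ERD15 is not given in the sources used here, and a label of both overexpressor samples reads as a knock-out, against their titles. No single-gene probe set is paired with ERD15, so its level was not analysed here and the genotypes are taken from the titles. The arrays are called mock vector, ABA vector, mock overexpressor and ABA overexpressor. With 1 array a group there is no replicate check on any value.

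ABA is the hormone through which plants answer drought: its receptors block a class of phosphatases, which frees kinases that activate transcription factors on dehydration genes. ERD15 is a small acidic protein induced early in dehydration and has been described as a negative regulator of ABA responses. Leaf genes of antimicrobial enzymes, of phenolic and coumarin synthesis and of sugar conjugation of defence hormones are often switched on together by stress or pathogens, and some respond to ABA as well.

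Over the 61 genes, the median signal (linear MAS5 signal, each array scaled to a trimmed mean of 100) was 13.99 on mock vector, 71.0 on ABA vector, 83.1 on mock overexpressor and 65.4 on ABA overexpressor. Over these medians mock vector was the low array. Gene by gene the other 3 arrays were not level: they spanned 2-fold or more in 29 of the 61 genes, with a median log2 range of 0.87 against 0.53 over all tested genes. Their median log2 difference was 1.90 for ABA against mock in the vector line and -0.49 for ABA against mock in the overexpressor, while over all tested genes these medians were -0.09 and 0.06. Under mock, the overexpressor was higher than the vector line by a median of 2.20, against -0.09 over all tested genes. Under ABA the genotypes differed by a median of -0.19, against 0.08. Mock vector is the base of both large medians, so they are not independent of each other.

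Counted at 2-fold, 59 of the 61 genes were higher with ABA in the vector line, where 4.85% of all tested genes were, and 60 were higher in the overexpressor under mock, where 4.89% of all tested genes were. ABA overexpressor exceeded mock vector at least 2-fold for 53 of them, against 5.68% of tested genes. These counts follow from the rule and nothing is read from them. The rule also bounds the genotype difference under ABA, which had to lie at least 2 below that under mock on the log2 scale. It thus worked against genes higher in the overexpressor under ABA. Under ABA, 56 of the 61 genes lay within 2-fold between the genotypes (91.8%, against 93.9% of all tested genes). In the overexpressor 4 were at least 2-fold lower (background 2.13%) and 1 was at least 2-fold higher (background 3.93%). In the overexpressor, 52 genes were lower with ABA than with mock and 9 were higher, and 15 were at least 2-fold lower, against 3.56% of tested genes. That ABA difference is a term of the rule. The counts under ABA and within the overexpressor are therefore also a description, and nothing is read from them.

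The name "low only in mock vector plants" described most members but not every one. The rule took genes lowest on mock vector, so the excess given next follows in large part from it and nothing is read from it. Mock vector lay at least 2-fold below each of the other 3 arrays for 52 of the 61 genes, against 2.29% (168 genes) of all tested genes. The exceptions were AT2G44240, AT4G32870, AT3G19870, AT5G47420, AT5G46230, AT4G29520, AT1G74240, AT3G47010 and AT1G10690. AT3G47010 read 23.6 on mock vector and 24.3 on ABA overexpressor, AT1G74240 read 23.4 and 26.9 on the same arrays, and AT5G46230 read 136 and 159. These 3 genes were low on ABA overexpressor as well. For 45 of the 61 genes the gap from mock vector to the next array was wider than the whole range of the other 3 arrays, and for 16 it was not. The share over all tested genes was not counted for this gap. It starts from the array that the rule made lowest, so these counts are a description.

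**Figure D1:**
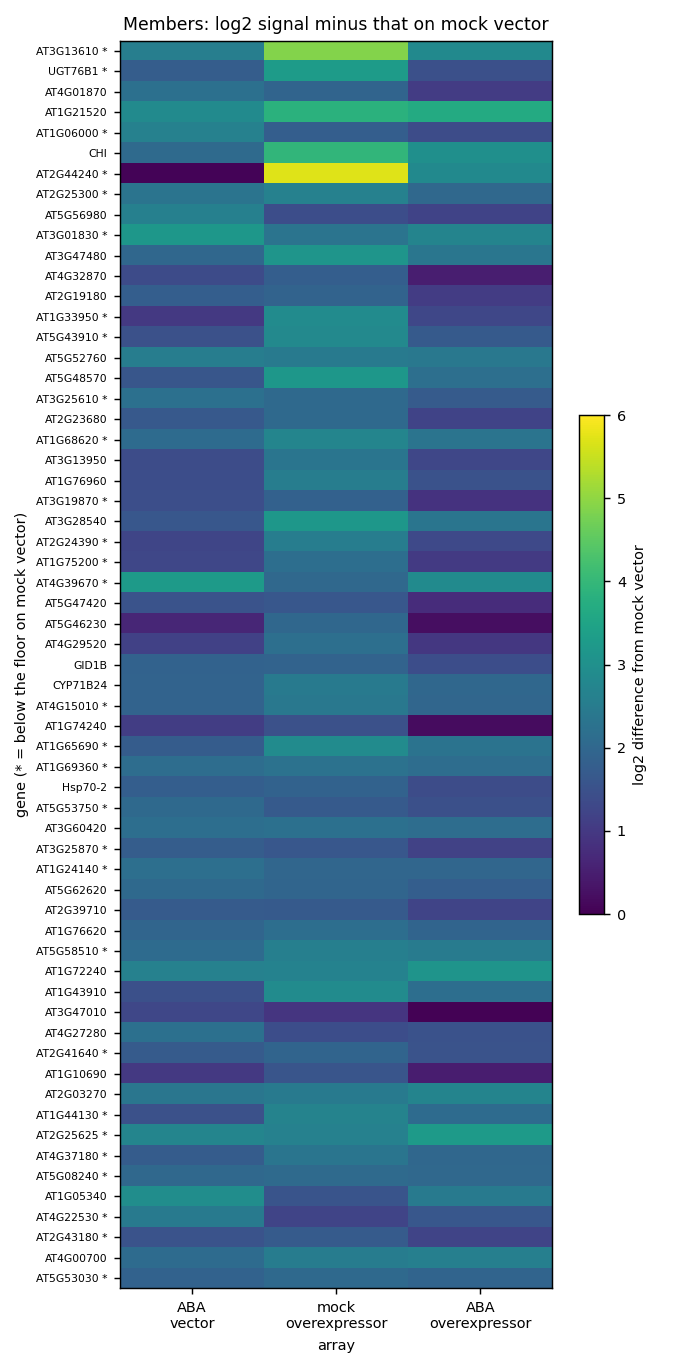
Log2 signal of each of the 61 genes (rows, the most negative difference at the top) on the ABA vector, mock overexpressor and ABA overexpressor arrays, minus its log2 signal on mock vector; an asterisk marks a gene below the floor on mock vector, whose differences are lower limits. The brightest colours lie in the mock overexpressor column, where AT2G44240 reaches 5.71, and the 9 exceptions appear as dark cells.

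Signals below a fixed floor, which is 3.73 on the log2 scale, were raised to it, since no detection call was used and such signals cannot be ordered. On mock vector 29 of the 61 genes lay below the floor and 32 above it, and no member lay below it on another array. For the 29 genes a fold change against mock vector is a lower limit, written "at least", and the true difference may be more negative than the value given. With the floor doubled, 26 genes other than those set aside followed the rule. Signals of different probe sets are no measure of relative RNA levels, but as readings the members lay low on the arrays: the median of the mean signal was 54.5 against 85.0 for all tested genes, and 32 members had a mean below 58.

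Only 7 of the 61 genes carry a name in the annotation used here, and the other 54 are known by locus alone. F6'H1 (AT3G13610, chromosome 3) encodes the hydroxylase that opens the route to the coumarin scopoletin, and its difference was -4.59 or lower. Its signal was below the floor on mock vector, 78.2 on ABA vector, 391 on mock overexpressor and 95.3 on ABA overexpressor. It stood at least 5.88-fold higher with ABA in the vector line, at least 29.4-fold higher in the overexpressor under mock and, by a log2 of -2.04, lower with ABA in the overexpressor. The 2 ABA arrays were close to each other, and mock overexpressor was well above both.

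UGT76B1 (AT3G11340, chromosome 3) encodes a glucosyltransferase that conjugates isoleucic acid, salicylic acid and N-hydroxypipecolic acid, small molecules of the immune response. Like F6'H1 it was below the floor on mock vector and highest on mock overexpressor, with signals of 45.2 on ABA vector, 130 on mock overexpressor and 37.0 on ABA overexpressor. Its ABA difference was at least 1.77 in the vector line and -1.81 in the overexpressor. CHI (AT2G43570, chromosome 2), annotated as a putative chitinase, an enzyme that cuts the fungal wall polymer chitin, read 168 on mock vector, 701 on ABA vector, 2575 on mock overexpressor and 1328 on ABA overexpressor, so that all 4 readings were far above the floor. The overexpressor was 15.4-fold higher than the vector line under mock, and ABA gave 4.18-fold more in the vector line and 1.94-fold less in the overexpressor.

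Protein-folding factors are encoded by ROF2 and Hsp70-2. ROF2 (AT5G48570, also FKBP65, chromosome 5), a peptidyl-prolyl isomerase of the heat stress response, read 162 on mock vector, 495 on ABA vector, 1460 on mock overexpressor and 742 on ABA overexpressor. Hsp70-2 (AT5G02490, chromosome 5), an Hsp70 chaperone, read 290, 998, 1072 and 765 on the arrays in the same order. Both were lowest on mock vector and highest on mock overexpressor, but the excess of mock overexpressor over ABA vector was wide for ROF2 and narrow for Hsp70-2. Their ABA differences were 1.61 and 1.78 in the vector line and -0.98 and -0.49 in the overexpressor.

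The remaining named genes are GID1B (AT3G63010, chromosome 3), a receptor for the growth hormone gibberellin, and CYP71B24 (AT3G26230, chromosome 3), a cytochrome P450 monooxygenase. GID1B read 17.8 on mock vector, 65.2 on ABA vector, 67.1 on mock overexpressor and 47.4 on ABA overexpressor, and its difference was -2.38. CYP71B24 read 22.5, 84.5, 124 and 89.9 in the same order, with a difference of -2.37. For GID1B the lowest of the other arrays was ABA overexpressor, and for CYP71B24 ABA vector and ABA overexpressor were nearly level.

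The 61 genes fell into 3 shapes by the array on which they were brightest: 41 on mock overexpressor, 16 on ABA vector and 4 on ABA overexpressor. The rule favoured high signals on mock overexpressor and ABA vector and worked against high signals on ABA overexpressor. The split therefore partly follows from the rule, and the sorting bounds the class medians. Both are a description. In the largest class the median ABA difference was 1.72 in the vector line and -0.83 in the overexpressor. In the class brightest on ABA vector it was 2.22 and -0.19. Mock vector was below the floor for 20 of the 41, 8 of the 16 and 1 of the 4. Of the 41 genes, 20 were higher on ABA vector than on ABA overexpressor and 21 were lower, so the order of the 2 ABA arrays was not shared.

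**Figure D2:**
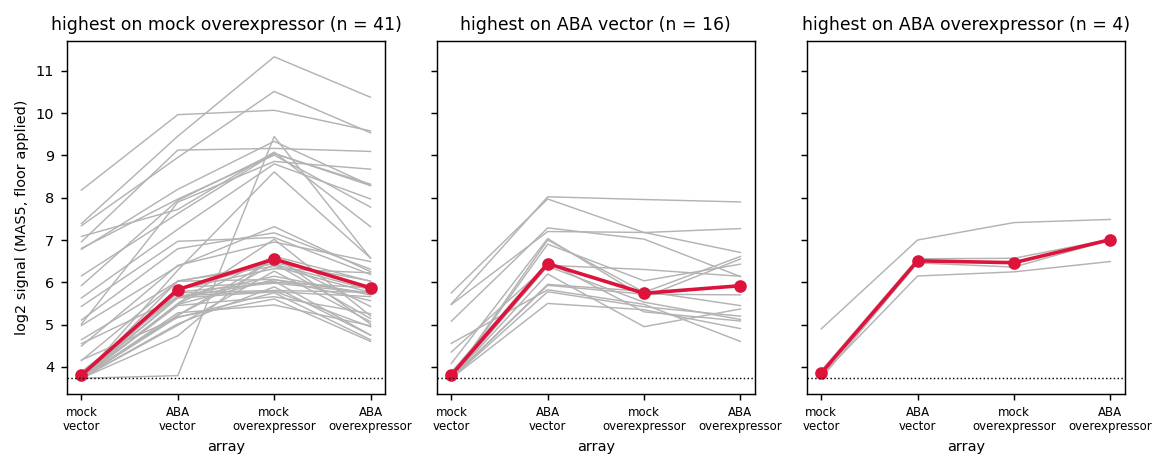
Log2 signal of each member (grey lines) and the median of its class (red) on the 4 arrays, in 3 panels by the array with the highest signal; the dotted line is the floor. By the rule all lines start low on mock vector, and by the sorting the 41 genes of the left panel peak on mock overexpressor.

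Among the genes known by locus, AT2G44240 was below the floor on mock vector, 13.9 on ABA vector, 698 on mock overexpressor and 95.1 on ABA overexpressor. Both vector arrays were thus at or near the floor. The overexpressor was at least 52.5-fold higher under mock, and under ABA higher by a log2 of 2.78. In the overexpressor the ABA reading was 7.34-fold below mock, the widest such gap of any member.

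AT1G21520 read 32.3 on mock vector, 238 on ABA vector, 464 on mock overexpressor and 409 on ABA overexpressor. It was high on all 3 other arrays, with an ABA overexpressor reading that was 3.66 above mock vector on the log2 scale. AT3G47480 read 60.7, 245, 529 and 312 in the same order, AT3G28540 read 49.6, 153, 446 and 251, and AT1G76960 read 110, 294, 645 and 313. In these 3 genes, all above the floor throughout, mock overexpressor stood apart and the ABA arrays lay between it and mock vector. AT3G28540 has 2 genes between it and AT3G28510, one of the genes set aside, which was below the floor on mock vector and read 21.9, 130 and 44.9 on the other arrays.

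In a further group ABA overexpressor was the lowest of the other 3 arrays. AT4G32870 read 25.01 on mock vector, 65.1 on ABA vector, 87.2 on mock overexpressor and 35.4 on ABA overexpressor. AT3G19870 was below the floor on mock vector and read 36.3, 48.7 and 24.3 on the others, and AT2G19180 read 14.8, 51.3, 55.5 and 30.9. Their ABA differences in the overexpressor were -1.30, -1.0 and -0.84, so the sign of the ABA difference was opposite in the 2 genotypes. AT2G23680 read 34.5, 111, 144 and 79.3, and AT3G13950 read 31.6, 83.3, 159 and 76.2, with the same order of arrays.

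Another 5 genes brightest on mock overexpressor were below the floor on mock vector and modest elsewhere. AT1G33950 read 26.7 on ABA vector, 98.9 on mock overexpressor and 32.3 on ABA overexpressor. AT5G43910 read 37.4, 93.8 and 43.1 on those arrays, and AT2G24390 read 31.7, 76.9 and 33.6. In these 3 genes both ABA arrays were nearly level and mock overexpressor was over 2-fold above them. AT2G25300 read 65.6, 83.1 and 54.2, and AT1G68620 read 56.7, 88.2 and 65.4, where all 3 arrays lay closer together.

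Of the 6 genes brightest on ABA vector among the 25 with the most negative difference, AT4G01870 read 33.9 on mock vector, 156 on ABA vector, 130 on mock overexpressor and 70.4 on ABA overexpressor. AT5G56980 read 14.7, 89.4, 39.5 and 33.96, and AT1G06000 was below the floor on mock vector and read 83.1, 46.2 and 34.8. With AT3G47010 these are the 4 genes that were at least 2-fold lower in the overexpressor under ABA, by log2 differences of -1.15, -1.40, -1.26 and -1.22. AT5G52760 read 44.9, 260, 249 and 239, so that the other 3 arrays were almost equal. AT3G01830 and AT3G25610 were below the floor on mock vector, and read 120 and 61.9 on ABA vector, 65.6 and 55.2 on mock overexpressor, and 86.2 and 43.7 on ABA overexpressor.

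The other 33 genes had differences from -2.43 to -2.01. Brightest on mock overexpressor were AT1G75200, AT5G47420, AT5G46230, AT4G29520, AT4G15010, AT1G74240, AT1G65690, AT1G69360, AT3G60420, AT1G76620, AT5G58510, AT1G43910, AT2G41640, AT1G10690, AT1G44130, AT4G37180, AT5G08240, AT2G43180 and AT5G53030. In these 19 genes the ABA difference ran from 0.64 to 2.17 in the vector line and from -1.76 to -0.04 in the overexpressor, and the genotype difference under mock from 1.48 to 2.89. AT3G60420 read 124 on mock vector, 559 on ABA vector, 574 on mock overexpressor and 546 on ABA overexpressor, so the other 3 arrays were nearly level.

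Brightest on ABA vector were AT4G39670, AT5G53750, AT3G25870, AT1G24140, AT5G62620, AT2G39710, AT3G47010, AT4G27280, AT1G05340 and AT4G22530. In these 10 genes the ABA difference in the vector line ran from 1.27 to 3.27, and in the overexpressor from -0.88 to 0.90. AT4G39670 had an ABA difference in the vector line of at least 3.27, and it was also higher with ABA in the overexpressor, by 0.85. AT1G05340 likewise had 2.95 and 0.90, so that in both genes ABA went with more signal in each genotype and the rule was met through the size of the vector difference. AT1G72240, AT2G03270, AT2G25625 and AT4G00700 were brightest on ABA overexpressor. In these 4 the ABA difference in the overexpressor ran from 0.07 to 0.64, and the genotype difference under ABA from 0.34 to 0.54.

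**Figure D3:**
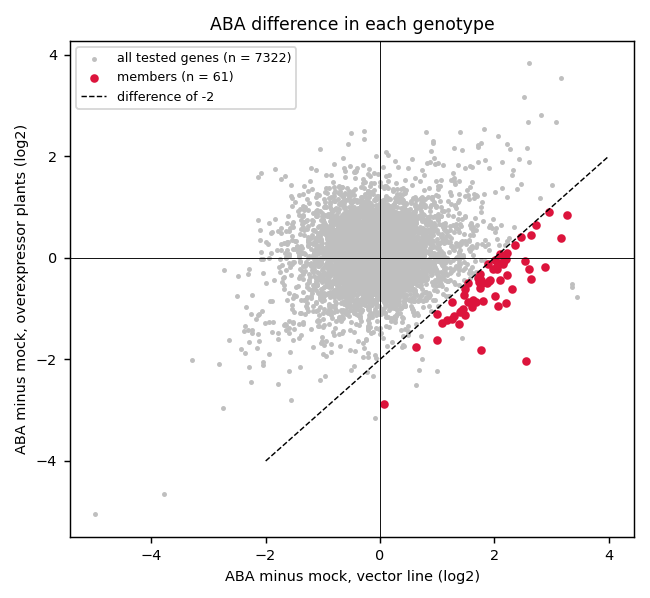
ABA minus mock in the vector line (horizontal, log2) against ABA minus mock in the overexpressor (vertical, log2) for the 7322 tested genes (grey) and the 61 members (red); the dashed line marks a difference of -2. All 61 members lie right of 0, and 52 of them lie below 0 on the vertical axis. Both axes for the members hold only what the rule selected.

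Values at the edge of the rule were close on either side. Just inside lay AT5G53030, AT4G00700 and AT2G43180, with differences of -2.01, -2.03 and -2.04. Just outside lay AT2G13290, AT5G38900 and AT2G41250, with -1.98, -1.97 and -1.97. AT2G13290 was below the floor on mock vector and read 39.5, 44.7 and 33.7 on ABA vector, mock overexpressor and ABA overexpressor, much like AT2G43180, which read 38.8, 44.2 and 31.4 there.

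Another view of the members comes from probes that the rule did not read. Of the 61 genes, 60 have 1 single-gene probe set. AT3G60420 has another, which was left aside as dimmer, and it read under the floor on mock vector and on both overexpressor arrays and 21.0 on ABA vector, too dim to bear on the pattern of the gene's brighter probe set.

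The rule was also applied to probe sets outside the gene table. Of 6247 probe sets paired with no gene or with several, and with a mean signal of 29 or more, 84 followed the same rule (1.34%), against 65 of the 7322 genes (0.888%) before genes were set aside. The rule selected these 84 on the same arrays, so their medians are fixed by it and are given as a description. In them the median ABA difference was 1.82 in the vector line and -0.72 in the overexpressor, and the genotype difference was 2.49 under mock and 0.07 under ABA. The probe set with the most negative difference, -4.86, read 77.9 on mock vector, 746 on ABA vector, 3959 on mock overexpressor and 1300.0 on ABA overexpressor. These probe sets were hybridised with the same 4 RNA samples and are no replicate of the plants.

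The same rule was written for each of the other arrays, as a count of genes lowest on that array with a difference of the matching sign and a size of 2 or more. By this count 62 genes were low on ABA vector, 50 on mock overexpressor and 13 on ABA overexpressor, against 65 on mock vector, so the number by itself did not set mock vector apart. With quantile normalization the counts were 24, 17 and 30 against 89. The brightness of the genes did differ. Among the 4917 genes with a mean signal of 58 or more, 32 were low on mock vector, 1 on ABA vector, 6 on mock overexpressor and 1 on ABA overexpressor. Among the 2405 dimmer genes the counts were 33, 61, 44 and 12 in the same order.

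A plainer count was highest on mock vector too. At least 2-fold below each of the other arrays were 168 genes on mock vector, 63 on ABA vector, 62 on mock overexpressor and 59 on ABA overexpressor. The probe sets outside the gene table that were low by the rule numbered 84, 36, 21 and 12. In the mirror count, genes highest on an array with a matching difference of size 2 or more numbered 54, 19, 55 and 56 in the same order. Outside the gene table the mirror count was 28, 14, 73 and 29. Genes at least 2-fold above each of the other arrays numbered 28, 9, 25 and 13. A gene can enter both a low and a high count. These counts compare single arrays, so a property of the plants and a property of the array or RNA sample cannot be told apart.

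**Figure D4:**
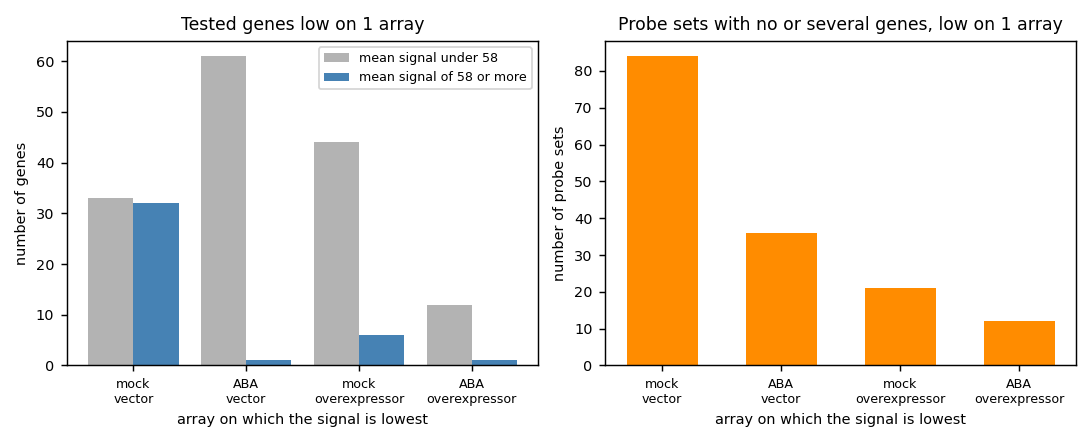
Number of features with their lowest signal on each array and a difference of matching sign and a size of 2 or more. Left, tested genes split at a mean signal of 58 (dimmer grey, brighter blue): 32 brighter genes are low on mock vector and 1 to 6 on each other array. Right, probe sets with no or several genes, with 84 on mock vector and 12 to 36 on the others.

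Mock vector had lower correlations and a higher floor count than the other arrays, and the arrays differed in control transcripts and leaf markers. The part of these values in the result was not tested. The Pearson correlation of log2 signals across tested genes, which are not independent replicates, was 0.878 to 0.902 for pairs with mock vector and 0.911 to 0.935 for the other pairs. With the genes that follow the rule and SAG101 removed it was 0.886 to 0.911 and 0.913 to 0.936. The pairs of ABA against mock were then close, at 0.911 in the vector line and 0.913 in the overexpressor. Below the floor were 72 tested genes on mock vector and 33 to 37 on the other arrays. Members, which the rule took for a low signal on mock vector, made up 40.3% of the 72, so part of this count follows from the rule. The control transcripts added at hybridisation (bioB, bioC, bioD and cre) were highest on mock vector except bioB, which was highest on ABA overexpressor. They differed from their mock vector level by mean log2 values of -0.98 to -0.16 on ABA vector, -1.39 to -0.84 on mock overexpressor and -0.24 to 0.16 on ABA overexpressor. In these controls ABA overexpressor was thus close to mock vector, and mock overexpressor was furthest from it for all but bioB. None of the control probe sets followed the rule. Of 19 leaf mesophyll markers 4 were measured. Their summed signal was 28094 on mock vector, 21541 on ABA vector, 14916 on mock overexpressor and 22120 on ABA overexpressor, so leaf RNA was present on all 4. The lowest sum was on mock overexpressor, the array on which most members were brightest. Of 10 guard cell markers only FMA passed the filter, at signals of 38.4 to 61.7. No listed marker of vasculature, root, flower or seed was both matched to a single-gene probe set and above the filter, so these were not assessed. In whole leaves, fewer cells of a type and less RNA per cell cannot be told apart.

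Members were spread over all 5 chromosomes, with 16, 11, 13, 9 and 12 on chromosomes 1 to 5. Their share per chromosome ran close to that of the tested genes, with 26.2% against 25.7% on chromosome 1 and 19.7% against 23.8% on chromosome 5. No member was adjacent to another, and the closest pair, AT1G43910 and AT1G44130, had 14 protein-coding genes between them in the TAIR10.1 RefSeq table. When all genes at least 2-fold below on mock vector and the genes set aside were counted as neighbours, 9 members (14.8%) had one within 10 genes, as did 900 of the 7125 tested genes with a place in that table (12.6%). AT5G52760 is adjacent to AT5G52750, which read 55.7 on mock vector, 144 on ABA vector, 151 on mock overexpressor and 145 on ABA overexpressor, a smaller version of the same shape.

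CYP71B24 lies near relatives of its subfamily, with 1 gene between it and CYP71B23 and 6 between it and CYP71B26. CYP71B23 read 58.3 on mock vector, 125 on ABA vector, 223 on mock overexpressor and 200.04 on ABA overexpressor, and CYP71B26 read 119, 281, 257 and 339. Both were at least 2-fold below on mock vector, with differences of -1.26 and -0.84 that missed the rule. The subfamily was not uniform. CYP71B22 was highest on mock vector, at 151 against 36.6, 40.5 and 32.8, and so was CYP71B35, at 70.1 against 36.3, 35.3 and 39.2. By smaller margins CYP71B34, CYP71B5 and CYP71B29 were highest there too. CYP71B28 and CYP71B6 were lowest on mock vector but not 2-fold below each other array. Near-identical copies could share probe signal, and the probes of these genes were not compared here.

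Related pathways were examined through 19 gene lists, which were matched by gene name and so reach few of the loci. In all, 93 listed genes were tested, and 4 lists had none: TIR and NBS-LRR resistance proteins, heat shock chaperones, lipid transfer proteins and AAA-type ATPases. The name patterns of the chaperone list did not match Hsp70-2 or ROF2. A member was found in 2 lists, UGT76B1 among 24 UDP-glycosyltransferases and CYP71B24 among 11 cytochrome P450 genes. The median ABA difference in the vector line was -0.28 over the glycosyltransferases and 0.07 over the P450 genes, against -0.09 over all tested genes. Of the 11 P450 genes 6 had their lowest signal on mock vector and 3 lay at least 2-fold below on it. Those 3 were CYP71B23, CYP71B24 and CYP71B26, which lie near each other, and most of the list was CYP71B genes. It thus speaks for little beyond that subfamily. Of the 24 glycosyltransferases these numbers were 5 and 2, and of all 7322 tested genes 1831 and 168.

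Outside the members, 8 listed genes lay at least 2-fold below on mock vector. SAG101, one of the genes set aside, encodes a lipase-like partner of EDS1 in immune signalling. It read 32.2 on mock vector, 84.2 on ABA vector, 99.0 on mock overexpressor and 87.5 on ABA overexpressor. PUB23, an E3 ubiquitin ligase that restrains immune responses, read 21.7, 46.6, 75.2 and 45.7, and WRKY53, a transcription factor of senescence and defence, read 59.5, 166, 126 and 222. SAG101 and PUB23 peaked on mock overexpressor, whereas WRKY53 was higher on both ABA arrays than on either mock array.

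Calcium signalling was represented among the 8 by CML41 and GLR2.7. CML41, a calmodulin-like protein, read 46.1 on mock vector, 92.4 on ABA vector, 188 on mock overexpressor and 151 on ABA overexpressor. GLR2.7, a glutamate receptor-like channel, read 112, 296, 233 and 258. The others of the 8 were CYP71B23, CYP71B26 and the glycosyltransferase gene UGT87A2, which read 81.4, 212, 303 and 311. The differences of these 8 genes ran from -1.82 for PUB23 to -0.66 for WRKY53, outside the rule by its threshold.

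**Figure D5:**
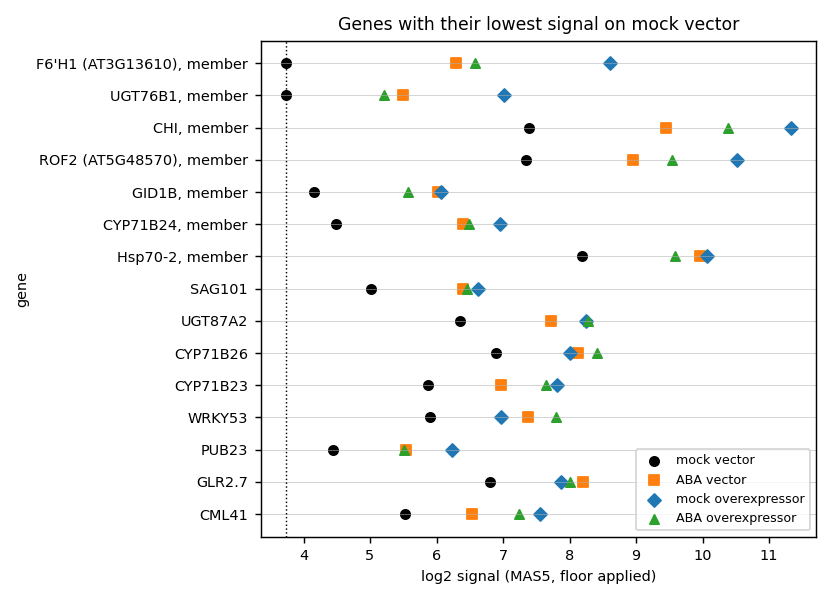
Log2 signal on the 4 arrays (black circles, mock vector; orange squares, ABA vector; blue diamonds, mock overexpressor; green triangles, ABA overexpressor) for the 7 members with a gene name and the 8 listed genes outside the members; the dotted line is the floor. Mock vector is the leftmost point in every row, and mock overexpressor is the rightmost for all 7 named members.

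Of 6 tested ABA and dehydration response genes none lay at least 2-fold below on mock vector and 2 had their lowest signal there, and the median ABA difference was 0.38 in the vector line and 1.05 in the overexpressor. None of 9 tested photosynthesis genes had its lowest signal on mock vector, and their medians were -0.25 and 0.43. Of 5 WRKY genes 3 were lowest on mock vector and WRKY53 alone was at least 2-fold below; of 5 glutathione transferases these numbers were 2 and 0. Both tested genes of the salicylic acid list, SAG101 and GRX480, were lowest on mock vector. Of 8 rapid touch, wound and stress regulators 4 were lowest there, as were 4 of 10 calcium signalling genes, 2 of 4 pattern recognition genes, 2 of 11 senescence genes, 0 of 2 jasmonate genes and the 1 tested ethylene gene, while the 1 clock gene and the 1 hypoxia gene were not. Over all tested genes 25.01% had their lowest signal on mock vector.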

How the data were processed

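Total RNA from 4 leaf samples was measured on ATH1 arrays, 1 array a group, grouped by sample title. Linear intensity values were deposited by the authors. The submitters' processing notes name MAS5, and its version and scaling target are not given in the sources used here. Because MAS5 brings arrays to a common mean, a change in total RNA would not show. The deposited trimmed means lay between 99.1 and 99.3.

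Arrays were then brought to a common mean of 100, computed without control probe sets and without the top and bottom 2% of signals. Probe sets paired with 1 gene in the platform annotation (13513; 503 had several genes and 8730 none) were kept at a mean signal of 29 or more, and the brightest stood for a gene. Signals were floored at a log2 of 3.73, and log2 values were used. Of the single-gene probe sets 13436 matched the TAIR10.1 RefSeq table, used for names and gene order only. Work was done in Python 3.11.15 with pandas 2.3.3 and NumPy 2.4.6. The membership step was tested on simulated data with low signals planted only in bright genes, so recovery of dim or floored genes was not tested. The number of arrays limits the precision: no test was run. Counts are at 2-fold.

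The members and lists were chosen with earlier results of these data known. Values on every array are given for the 25 members with the most negative difference, for members in a gene list or with a gene name, and for listed non-members at least 2-fold below on mock vector. Members given for other reasons (AT3G60420, AT4G39670, AT1G05340, AT3G47010, AT1G74240 and AT5G46230) and genes named as neighbours were chosen after their values were seen. So were CYP71B22, the other CYP71B genes given with it and the probe set outside the gene table. Promoter motifs and sequences were not analysed here. Alternatives were the deposited scale, quantile normalization, median centring, other floors, filters, thresholds and averaged probe sets.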

Additional observations from a re-analysis of the deposited data

Results flagged for a closer look

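The median ABA difference of the 61 genes had opposite signs in the genotypes: the vector line had a median of 1.90 and the overexpressor one of -0.49, on the log2 scale. Each value compares 1 array with 1 array, the rule selected for this contrast, and the difference was not tested.

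Of 6247 probe sets outside the gene table, 84 followed the rule (1.34%, against 0.888% of the tested genes), 82 of them paired with no gene and 2 with several, while 0 of the control probe sets did. The rule selected them on the same 4 arrays, so their pattern is fixed by it and was not tested.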

How the results depend on the processing

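No paired analysis was possible because each group holds 1 array, and none could be left out for the same reason. The 4 medians over members were recomputed under 8 alternatives and kept their sign. So did the differences of the 25 members with the most negative values, where these passed the filter. For those 25, and for both medians taken against mock vector, a kept sign was nearly fixed by the way the genes were chosen. Of the other values, with quantile normalization the genotype difference under ABA changed sign in 5 members (at most about 0.08 in size as reported) and the ABA difference in the overexpressor in 1, AT5G52760. AT3G47010 read -0.03 in place of 0.05 for ABA overexpressor minus mock vector and no longer followed the rule. The number of members was 61 on the deposited scale and with averaged probe sets, and 71 with median centring or a halved floor. It was 76 with no filter, and 85 with quantile normalization, of which 60 were among the 61; the cause was not tested. It was 26 with the floor doubled, 29 at a mean signal of 58 or more, 141 at a difference of -1.5 or less and 20 at -2.5 or less. In 9 members the rule was met under all 10 alternatives: AT1G21520, AT2G23680, AT2G44240, F6'H1 (AT3G13610), AT3G47480, AT4G01870, ROF2 (AT5G48570), AT5G52760 and CHI.

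Genes low on ABA vector, mock overexpressor and ABA overexpressor numbered 24, 17 and 30 with quantile normalization, 16, 15 and 3 with the floor doubled, 1, 6 and 1 at a mean signal of 58 or more, 167, 132 and 27 with no filter, 155, 148 and 40 at a difference of size 1.5, and 17, 13 and 6 at 2.5. With the floor halved ABA overexpressor had 20. Mock vector, counted before genes were set aside, had 89, 29, 32, 80, 146, 23 and 75 under these 7 settings, so with no filter and at size 1.5 it was not the array with the most low genes.

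At a mean signal of 58 or more, which keeps 29 of the 61 genes, those at least 2-fold higher with ABA in the vector line numbered 27, those at least 2-fold lower with ABA in the overexpressor 6, those higher in the overexpressor under mock 29 and those lower under ABA 1; the fall in number comes from the fewer genes tested. The floor sets the size of a fold for the 29 genes below it on mock vector: the median ABA difference in the vector line was 1.29 with the floor doubled and 2.20 with it halved.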
